A study of Homo sapiens with 36 samples.

Results

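The 10 genes described here encode the proteins that license DNA for replication: ORC1, CDC6 and CDT1, which load the helicase, MCM2, MCM3, MCM4, MCM5, MCM6 and MCM7, which form its ring, and MCM10, which acts when the loaded helicase starts to unwind DNA. They were chosen by symbol from knowledge of the pathway, at a time when earlier results of these data were known. Each symbol matched 1 of the 60648 gene identifiers of the RNA-seq count files. All 10 were among the 15415 protein-coding genes tested. On GRCh38 in GENCODE they lie on 10 chromosomes, for example MCM2 at chr3:127598410-127622436 (plus strand), MCM6 at chr2:135839626-135876443 (minus), MCM3 at chr6:52264014-52284881 (minus), MCM7 at chr7:100092233-100101940 (minus), ORC1 at chr1:52372829-52404423 (minus), CDC6 at chr17:40287879-40304657 (plus), CDT1 at chr16:88803789-88809258 (plus), MCM10 at chr10:13161558-13211110 (plus) and MCM5 at chr22:35400134-35425431 (plus).

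Their mRNA was measured in HCT116, a human colorectal cancer cell line that carries the plant ubiquitin ligase component OsTIR1 under a doxycycline (Dox)-inducible promoter. In 3 degron lines a mini-auxin-inducible degron tag sits on UHRF1 (UHRF1-AID), on DNMT1 (DNMT1-AID) or on both (UHRF1-AID/DNMT1-AID), so that auxin leads to loss of the tagged protein. WT cells carry neither tag. Every group, WT included, received 2 µg/mL Dox with 20 µM auxinole for 1 day and then 2 µg/mL Dox with 500 µM auxin for 2, 6 or 8 days, which gives 12 groups of 3 libraries. A difference between a degron line and WT is thus not one between treated and untreated cells. The labels do not name the clone behind each library, so the p-values measure the spread between these libraries.

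Licensing happens in the gap between mitosis and S phase. The origin recognition complex, whose largest subunit is ORC1, binds origins, and with CDC6 and CDT1 it places rings of MCM2 to MCM7 around DNA in an inactive form. Kinases later switch these rings on, with MCM10 taking part. The genes are classical targets of the E2F transcription factors, are expressed in proliferating cells, and serve in pathology and cell biology as markers of proliferation.

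Libraries held 21074536 to 37175136 counts. The epithelial markers EPCAM, KRT8, KRT18, KRT19, CDH1, CLDN3 and CLDN4 were present in every library, while LGALS4 stayed at or below 0.966 CPM (counts scaled to a common library total). Of 10 markers of other cell types such as fibroblasts and leukocytes, CD68 (8.39 to 37.4 CPM), COL1A1 (2.04 to 82.2 CPM) and GFAP (1.35 to 4.62 CPM) were measurable and the other 7 did not exceed 2.6 CPM. DNMT1 mRNA was lower in DNMT1-AID than in WT on day 8, by 1.63 ± 0.21 on the log2 scale (SE). The degron acts on protein, so mRNA of UHRF1 or DNMT1 does not check the depletion. The mean share of counts from mitochondrial genes on day 8 was 9.60% in UHRF1-AID/DNMT1-AID against 3.39% in WT, with DNMT1-AID at 5.99% and UHRF1-AID at 5.71%. The summed level of the 10 markers of other cell types on day 8 was 49 to 60.4 CPM in WT and 58.4 to 70.1 CPM in UHRF1-AID/DNMT1-AID. Of 5 tested there, 3 were higher (COL1A1, PECAM1 and PTPRC), beside 35.7% of all genes, and CD68 was lower, beside 32.8%. PECAM1 and PTPRC reached at most 62 and 27 counts in any library and had 0 counts in 4 and 14 libraries. Their calls thus rest on few reads. Of 8 colon epithelial markers, 5 were higher and CLDN4 was lower in that line, beside the same shares of all genes. The part of these in the day 8 differences was not tested. In bulk RNA, fewer cells in a phase of the cell cycle and less mRNA per cell cannot be told apart.

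All 10 mRNAs were well measured, the lowest count of any of them in any library being 126, for ORC1. Per kilobase of annotated exon, as a mean over the 12 groups, MCM7 had the highest level at 51.5 CPM per kilobase. CDT1 followed at 41.9, MCM3 at 38.8, MCM2 at 30.3, MCM6 at 27.3, MCM5 at 19.6, MCM4 at 16.1 and CDC6 at 11.7 CPM per kilobase. ORC1, at 5.77, and MCM10, at 3.96 CPM per kilobase, were the least abundant. The union of annotated exons of MCM4 is 9852 bases, which lowers its value on this scale.

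In CPM, the highest of the 12 group means was a WT group for every one of the 10 genes. It was WT on day 8 for 7 of them, and WT on day 2 for CDC6, MCM6 and MCM7. The lowest group mean was UHRF1-AID/DNMT1-AID on day 8 for ORC1, MCM2, MCM4, MCM6 and MCM7. It was the same line on day 2 for MCM3 and MCM10, and UHRF1-AID on day 6 for CDC6 and MCM5. CDT1 was lowest in UHRF1-AID on day 2. CDT1 also spanned the widest range, its highest group mean being 5.45 times its lowest, followed by ORC1 at 4.36, MCM2 at 4.08 and MCM7 at 3.98 times. MCM3, at 2.17 times, and CDC6, at 2.26 times, spanned the least. Of 110 pairs of neighbouring groups in these orders, 81 had overlapping libraries and 29 did not.

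**Figure D1:**
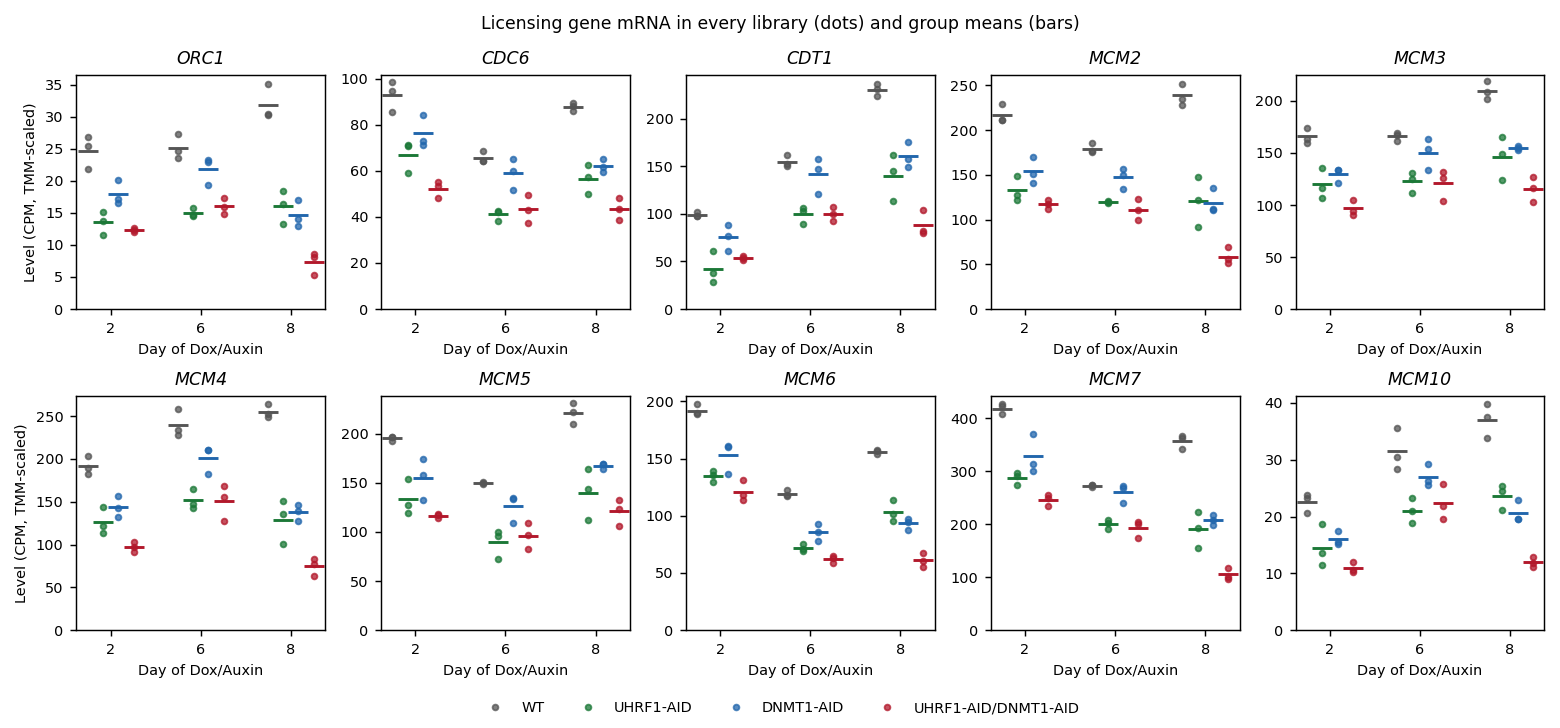
Level of each gene in every library (dots) and group means (bars), in CPM scaled by the trimmed mean of M values on a linear axis from 0, by day of Dox/Auxin and line. On day 8, WT libraries of MCM2 lay between 228 and 252 CPM and those of UHRF1-AID/DNMT1-AID between 51.5 and 68.9 CPM.

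Promoter sequences are shown because E2F regulates many replication genes and because the letters let a reader compare members. RefSeq windows on GRCh38.p14, from 250 bases before to 50 after the annotated start, were found for 8 of the 10 genes, all but MCM4 and MCM5. Each window below is written 5′ to 3′ in the direction of transcription, with matches to the E2F letters in capitals. The letters searched on both strands were TTTCCCGC, TTTGGCGC, TTTCGCGC and TTTGCCGC, and those ending in G (TTTCCCGG, TTTGGCGG, TTTCGCGG and TTTGCCGG), which were added after the sequences had been seen. MCM2, MCM6, MCM3 and CDC6 are shown as members with a match and ORC1 as the member without one.
MCM2, chr3:127598161-127598460, plus strand: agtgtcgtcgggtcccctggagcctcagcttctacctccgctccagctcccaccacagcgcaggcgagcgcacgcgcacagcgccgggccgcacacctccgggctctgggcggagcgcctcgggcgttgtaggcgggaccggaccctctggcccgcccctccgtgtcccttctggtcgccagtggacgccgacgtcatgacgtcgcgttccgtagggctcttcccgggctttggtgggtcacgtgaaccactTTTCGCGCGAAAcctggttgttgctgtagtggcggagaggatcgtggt
MCM6, chr2:135876394-135876693, minus strand: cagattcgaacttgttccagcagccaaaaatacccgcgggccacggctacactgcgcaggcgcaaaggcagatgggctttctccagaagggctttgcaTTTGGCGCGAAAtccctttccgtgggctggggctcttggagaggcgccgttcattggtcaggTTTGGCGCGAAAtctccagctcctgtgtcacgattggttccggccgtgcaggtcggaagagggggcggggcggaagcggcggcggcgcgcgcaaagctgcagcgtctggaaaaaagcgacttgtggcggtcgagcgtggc
MCM3, chr6:52284693-52284992, minus strand: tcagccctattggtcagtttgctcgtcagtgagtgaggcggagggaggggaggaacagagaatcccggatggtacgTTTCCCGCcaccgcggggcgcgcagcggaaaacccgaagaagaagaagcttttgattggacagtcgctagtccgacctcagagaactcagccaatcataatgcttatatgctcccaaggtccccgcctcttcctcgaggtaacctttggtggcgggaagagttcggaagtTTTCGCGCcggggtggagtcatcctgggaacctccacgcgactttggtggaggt
CDC6, chr17:40287629-40287928, plus strand: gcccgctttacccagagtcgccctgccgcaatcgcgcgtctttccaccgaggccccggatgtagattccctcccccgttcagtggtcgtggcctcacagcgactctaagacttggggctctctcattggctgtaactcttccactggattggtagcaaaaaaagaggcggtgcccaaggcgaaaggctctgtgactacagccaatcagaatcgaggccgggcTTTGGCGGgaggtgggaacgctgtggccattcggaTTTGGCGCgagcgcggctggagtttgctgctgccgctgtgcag
ORC1, chr1:52404374-52404673, minus strand: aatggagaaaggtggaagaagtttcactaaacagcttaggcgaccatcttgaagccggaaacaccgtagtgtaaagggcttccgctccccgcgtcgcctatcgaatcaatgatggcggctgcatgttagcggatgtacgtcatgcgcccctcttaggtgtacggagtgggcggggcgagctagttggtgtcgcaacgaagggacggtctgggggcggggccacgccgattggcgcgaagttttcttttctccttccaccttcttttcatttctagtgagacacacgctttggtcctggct

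The first 4 strings occurred in 6 of the 8 genes and in 3.31% of all 35116 promoter windows. A gene counted if any of its windows held a string, and MCM7 had several windows, while the percentages count single windows. Those ending in G occurred in 4 of the 8 and in 3.03% of windows. One or the other was present in 7 of the 8, against 6.19% of windows. In MCM2 the capitals form a palindrome in which TTTCGCGC reads on both strands. MCM6 carries TTTGGCGC at 2 places, at 152 and 90 bases before the start, each overlapping TTTCGCGC on the other strand. The CCAAT string was in 6 of 8 members and 34.6% of windows, and TTTGAA, a core found in promoters of many mitotic genes, in 0 of 8 and 15.2%. A match describes letters and not binding, and ORC1 lacks only these letters in this window.

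On day 8, all 10 mRNAs were lower than in WT in each of the 3 degron lines, and the differences were deepest in UHRF1-AID/DNMT1-AID. In that line the 10 log2 fold changes ran from -2.13 to -0.86 with a median of -1.50, against a median of 0.03 over all genes. Of all genes, 32.8% were lower by the same test (edgeR's quasi-likelihood test with Benjamini-Hochberg adjustment, adjusted p under 0.05). A difference above 2-fold was found for 8 of the 10 members, against 7.65% of genes. The adjusted p of the 10 lay between 5.82e-17 and 1.58e-07. In every one of the 10 genes, all 3 libraries of the line were below all 3 of WT, as in 33.7% of genes.

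ORC1, the origin recognition subunit whose amount varies through the cell cycle, had 30.3, 35.1 and 30.4 CPM in the WT libraries of day 8. In UHRF1-AID/DNMT1-AID it had 8.1, 5.29 and 8.54 CPM, with no overlap. This was 4.37-fold lower, a log2 fold change of -2.13 ± 0.14 (SE, n = 3 per group; adjusted p = 1.05e-14 by edgeR). MCM2, a ring subunit, had 228, 252 and 235 CPM in WT and 55.4, 51.5 and 68.9 CPM in UHRF1-AID/DNMT1-AID. Its level was 4.07-fold lower, at -2.02 ± 0.12. MCM4, another subunit of the ring, stood at 249, 264 and 253 CPM against 77.8, 63.5 and 83.7 CPM, a difference of -1.77 ± 0.12. For MCM7 the values were 342, 363 and 366 CPM against 100, 97.3 and 118 CPM, a difference of -1.76 ± 0.10. Per kilobase MCM7 was the most abundant ring subunit as a mean over the 12 groups, but MCM3 was above it in this line on day 8. These 4 genes and MCM10 were at least 3-fold apart by their fitted values, MCM10 by 3.09-fold.

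The remaining members moved less. MCM10 had 37.6, 39.8 and 33.8 CPM in WT and 12.9, 11.8 and 11.2 CPM in UHRF1-AID/DNMT1-AID, at -1.63 ± 0.13. CDT1, the loader that geminin inhibits, was at -1.38 ± 0.17 and MCM6 at -1.35 ± 0.08. CDC6, the loading ATPase, was at -1.02 ± 0.10. MCM5 had 210, 231 and 222 CPM in WT and 123, 106 and 133 CPM in the line, at -0.87 ± 0.12. MCM3 had 202, 219 and 209 CPM against 127, 103 and 116 CPM, at -0.86 ± 0.10. MCM3 and MCM5 were the members that differed by less than 2-fold.

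In UHRF1-AID on day 8 the 10 log2 fold changes against WT ran from -0.996 to -0.52, and 21% of all genes were lower. All 3 libraries were below WT for all 10, as in 26.1% of genes. ORC1 (-0.996 ± 0.134), MCM2 (-0.98 ± 0.12), MCM4 (-0.98 ± 0.12) and MCM7 (-0.91 ± 0.09) were again the furthest from WT. The other log2 fold changes were MCM3 -0.52 ± 0.10, MCM5 -0.66 ± 0.12, MCM6 -0.59 ± 0.08, MCM10 -0.65 ± 0.13, CDC6 -0.64 ± 0.10 and CDT1 -0.72 ± 0.17. Replicate 2 of this group was the lowest of its 3 libraries for all 10 members: MCM2 had 148, 91.3 and 122 CPM. In DNMT1-AID on day 8 the range was -1.11 to -0.40, while 22.4% of all genes were lower. ORC1 stood at -1.11 ± 0.13, MCM2 at -0.997 ± 0.118, MCM4 at -0.89 ± 0.12, MCM10 at -0.84 ± 0.13 and MCM7 at -0.78 ± 0.09. MCM6, CDT1 and CDC6 had smaller differences (MCM6 -0.74 ± 0.08, CDT1 -0.52 ± 0.17 and CDC6 -0.50 ± 0.10). MCM5 at -0.40 ± 0.12 and MCM3 at -0.44 ± 0.10 were the nearest to WT. ORC1 was the member above 2-fold, as were 2% of all genes, and the libraries of all 10 lay below WT, as in 27.6% of genes. Comparisons made on the same day share the WT libraries, so their likeness is not independent evidence.

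**Figure D2:**
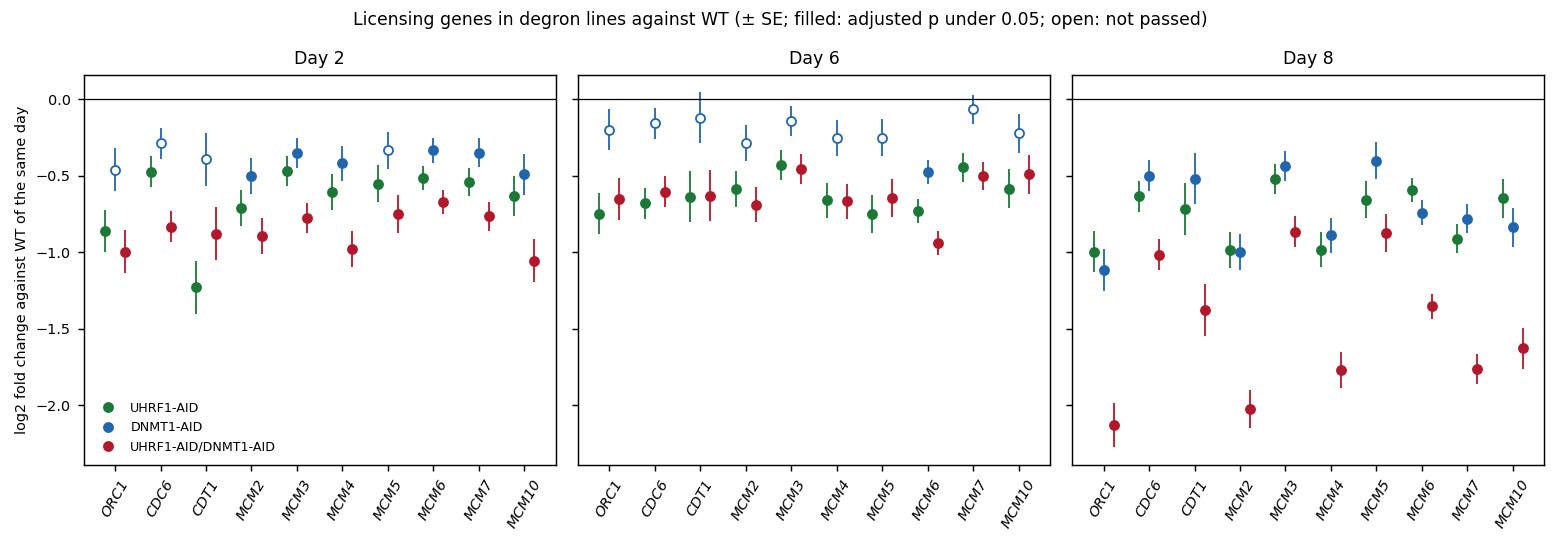
Log2 fold change of each gene against WT of the same day (± SE) on days 2, 6 and 8, by degron line, with filled circles for an adjusted p under 0.05 and open circles for the rest. On day 6 only MCM6 is filled in DNMT1-AID, and on day 8 ORC1 and MCM2 in UHRF1-AID/DNMT1-AID lie lowest, at -2.13 and -2.02.

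The differences were present on day 2, the first day sampled here. None of the 36 libraries is from untreated cells, so whether the lines differed before auxin was not tested here. In UHRF1-AID/DNMT1-AID all 10 members were lower, against 11.5% of all genes, with log2 fold changes from -1.05 to -0.67. MCM10 (-1.05 ± 0.14), ORC1 (-0.996 ± 0.142) and MCM4 (-0.98 ± 0.12) led, and MCM6 was nearest to WT at -0.67 ± 0.08. Between them lay MCM2 -0.89 ± 0.12, CDT1 -0.88 ± 0.17, CDC6 -0.83 ± 0.10, MCM3 -0.78 ± 0.10, MCM7 -0.77 ± 0.09 and MCM5 -0.75 ± 0.12. ORC1 had 25.4, 26.8 and 21.8 CPM in WT and 12.3, 12.7 and 12 CPM in this line. MCM10 had 23.8, 23.2 and 20.7 CPM in WT and 10.2, 10.5 and 12 CPM in the line, the only difference of a member above 2-fold, which 0.999% of all genes reached. The libraries of all 10 members lay below WT, as in 20.5% of genes.

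In UHRF1-AID on day 2 all 10 were lower as well, against 14.4% of all genes. Among them CDT1 was the furthest from WT, though whether it differs from the other members was not tested. Its level was 102, 97.4 and 97.3 CPM in WT and 28.3, 37.4 and 60.8 CPM in UHRF1-AID, at -1.23 ± 0.17 (adjusted p = 3.57e-06 by edgeR). The 3 libraries of UHRF1-AID differed among themselves for this gene more than those of other groups on that day. Over the alternatives and with single libraries left out, its log2 fold change ran from -1.59 to -1.01, with adjusted p up to 0.0338 (edgeR or DESeq2). These alternatives include GC content and length correction. Replicate 1 of UHRF1-AID was the lowest and replicate 3 the highest of its 3 libraries for all 10 members. MCM2, for example, had 122, 127 and 149 CPM. CDT1 was the member above 2-fold, where 3.31% of all genes were. The other 9 lay between -0.86 ± 0.14 for ORC1 and -0.47 ± 0.10 for MCM3, with MCM2 -0.71 ± 0.12, MCM10 -0.63 ± 0.13, MCM4 -0.61 ± 0.12, MCM5 -0.55 ± 0.12, MCM7 -0.54 ± 0.09, MCM6 -0.52 ± 0.08 and CDC6 -0.47 ± 0.10. The libraries of all 10 lay below WT, as in 18.6% of genes.

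In DNMT1-AID on day 2, 6 members were lower (MCM2, MCM3, MCM4, MCM6, MCM7 and MCM10), where 0.714% of all genes were. Their log2 fold changes were small, between -0.50 ± 0.12 for MCM2 and -0.34 ± 0.08 for MCM6, with MCM10 -0.49 ± 0.13, MCM4 -0.42 ± 0.12, MCM3 -0.35 ± 0.10 and MCM7 -0.35 ± 0.09. ORC1 (-0.46 ± 0.14), CDT1 (-0.39 ± 0.17), MCM5 (-0.33 ± 0.12) and CDC6 (-0.29 ± 0.10) did not pass. All 3 libraries were nonetheless below all 3 of WT in each of the 10 genes, as in 9.45% of genes. The count rested on single libraries: it was 0 without DNMT1-AID replicate 3, 1 without WT replicate 1, and 2 without WT replicate 2, WT replicate 3 or DNMT1-AID replicate 2. Fitted on the libraries of the comparison only, it was 10. Scaling by library size alone gave 9, with 531 of all genes lower in place of 110.

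On day 6 the lines differed in how many members passed. In UHRF1-AID all 10 members were lower than in WT (-0.75 to -0.43), against 10.5% of all genes, and all libraries lay below WT, as in 21.3% of genes. In UHRF1-AID/DNMT1-AID all 10 were lower too (-0.94 to -0.46), against 21.9% of all genes, again with every library below WT, as in 33.2% of genes. ORC1 and MCM5 were the furthest from WT in UHRF1-AID, at -0.75 ± 0.13 and -0.75 ± 0.12. MCM5 had 99.7, 72.5 and 95.8 CPM there. Over the alternatives and with single libraries left out, its log2 fold change ran from -0.85 to -0.62. Replicate 2 also had a lower mitochondrial share, 1.36% against 3.69% and 3.70% in the others of the group, whose part was not tested. Other ring subunits in that line had MCM6 -0.73 ± 0.08, MCM4 -0.66 ± 0.12, MCM2 -0.59 ± 0.12, MCM7 -0.45 ± 0.09 and MCM3 -0.43 ± 0.10, and the other factors CDC6 -0.68 ± 0.10, CDT1 -0.64 ± 0.17 and MCM10 -0.58 ± 0.13. In UHRF1-AID/DNMT1-AID, MCM6 was the furthest from WT, with 123, 117 and 118 CPM in WT and 65.2, 58.3 and 63.3 CPM in the line, at -0.94 ± 0.08. The other ring subunits there had MCM2 -0.69 ± 0.12, MCM4 -0.67 ± 0.12, MCM5 -0.65 ± 0.12, MCM7 -0.50 ± 0.09 and MCM3 -0.46 ± 0.10, and the loading and activation factors ORC1 -0.65 ± 0.13, CDT1 -0.63 ± 0.17, CDC6 -0.60 ± 0.10 and MCM10 -0.49 ± 0.13. In DNMT1-AID, MCM6 alone passed, against 4.35% of all genes. It had 92.5, 86.2 and 78.4 CPM, at -0.48 ± 0.08. Fitted on the libraries of the comparison only, 4 members passed. The other 9 lay between -0.29 and -0.07 and did not pass (MCM2 -0.29 ± 0.12, MCM4 -0.25 ± 0.12, MCM5 -0.25 ± 0.12, MCM10 -0.22 ± 0.13, ORC1 -0.20 ± 0.13, CDC6 -0.16 ± 0.10, MCM3 -0.14 ± 0.10, CDT1 -0.12 ± 0.17 and MCM7 -0.07 ± 0.09). Only 5 of the 10 had every library below WT, against 19.3% of genes.

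The change of each difference from WT between days 2 and 8 was tested in the same fit. In UHRF1-AID/DNMT1-AID it deepened for 6 members, against 22.6% of all genes: ORC1 by a further -1.13 ± 0.20, MCM2 by -1.13 ± 0.17, MCM7 by -0.998 ± 0.133, MCM4 by -0.79 ± 0.16, MCM6 by -0.68 ± 0.11 and MCM10 by -0.57 ± 0.19. It did not pass for MCM3 (-0.09 ± 0.14), MCM5 (-0.12 ± 0.17), CDC6 (-0.18 ± 0.14) or CDT1 (-0.50 ± 0.24). In DNMT1-AID it deepened for 5 members (MCM2, MCM4, MCM6, MCM7 and ORC1), against 9.28% of all genes. That count fell to 1 without WT day 2 replicate 3, DNMT1-AID day 2 replicate 1 or DNMT1-AID day 8 replicate 3, and to 2 without WT day 8 replicate 2. It was 3 without WT day 2 replicate 2, WT day 8 replicate 3, DNMT1-AID day 2 replicate 2 or DNMT1-AID day 8 replicate 2. In UHRF1-AID only MCM7 passed (-0.37 ± 0.13, adjusted p = 0.0477 by edgeR), against 7.09% of genes. No member was lower by this test without any 1 library other than UHRF1-AID day 8 replicate 1, without which 3 were. Without UHRF1-AID day 2 replicate 3, 1 member changed towards WT. Whether members differ from each other in this change was not tested.

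**Figure D3:**
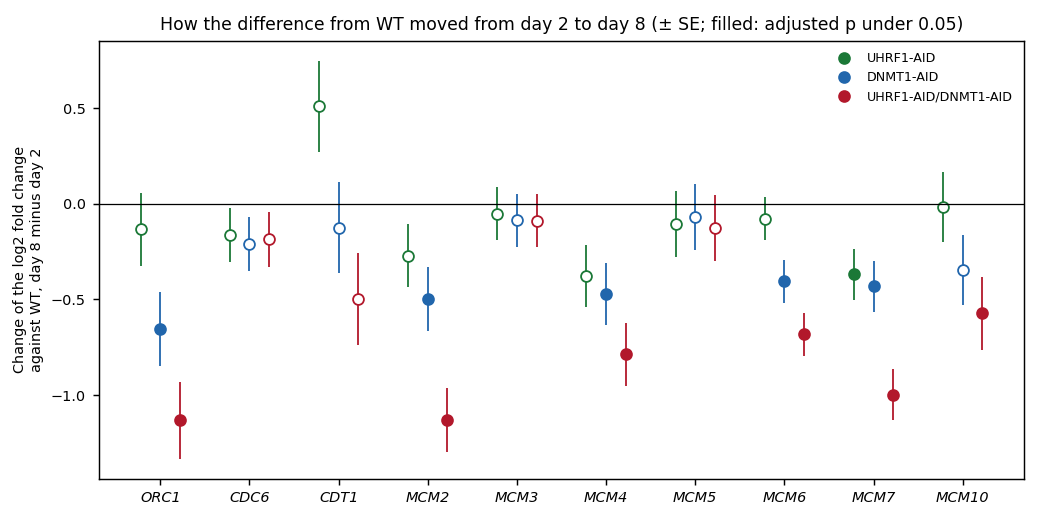
Change of the log2 fold change against WT from day 2 to day 8 (± SE) for each gene and degron line, with filled circles for an adjusted p under 0.05. MCM3, MCM5, CDC6 and CDT1 are open in all 3 lines, whereas ORC1 and MCM2 lie at -1.13 in UHRF1-AID/DNMT1-AID.

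The degron lines were also compared with each other. UHRF1-AID/DNMT1-AID was lower than DNMT1-AID in 9 members on day 2 (4.72% of all genes), 9 on day 6 (13% of all genes) and 10 on day 8 (24% of all genes). The members that did not pass were CDT1 on day 2 (-0.49 ± 0.17) and MCM10 on day 6 (-0.27 ± 0.13). The day 6 count was 3 without UHRF1-AID/DNMT1-AID replicate 2, 4 without DNMT1-AID replicate 2, 5 without DNMT1-AID replicate 1 and 3 with scaling by library size alone. The day 2 count was 6 without DNMT1-AID replicate 1.

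Against UHRF1-AID, UHRF1-AID/DNMT1-AID was lower in 4 members on day 2, namely MCM3, MCM4, MCM10 and CDC6, where 5.6% of all genes were. Without UHRF1-AID replicate 3 no member was lower and CDT1 was higher. Without UHRF1-AID/DNMT1-AID replicate 1 or 2 the count was 2, and without its replicate 3 it was 1. On day 6, 0 members passed in edgeR and in DESeq2 (log2 fold changes -0.21 to 0.10), and 1, MCM6, had an unadjusted p under 0.05, with 5.39% of all genes lower. On day 8, 9 members were lower, all but MCM5, against 23.5% of all genes. ORC1 had 18.4, 13.2 and 16.4 CPM in UHRF1-AID on day 8, all above the 5.29 to 8.54 CPM of UHRF1-AID/DNMT1-AID, at -1.13 ± 0.14.

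UHRF1-AID was lower than DNMT1-AID for CDT1 (-0.83 ± 0.17) and ORC1 (-0.40 ± 0.14) on day 2, against 12.7% of all genes. On day 6 it was lower for 7 members, against 5.1% of all genes: CDC6 (-0.52 ± 0.10), ORC1 (-0.55 ± 0.13), CDT1, MCM4, MCM5, MCM6 and MCM7. The day 6 count was 4 without UHRF1-AID replicate 3, DNMT1-AID replicate 1 or DNMT1-AID replicate 2. The day 2 count was 1 without UHRF1-AID replicate 1, UHRF1-AID replicate 2, DNMT1-AID replicate 1 or DNMT1-AID replicate 2. On day 8, 0 members passed in edgeR and in DESeq2, with log2 fold changes from -0.26 to 0.19, and 1, MCM5, had an unadjusted p under 0.05. Without UHRF1-AID replicate 1, 1 member was lower. Of all genes, 8.24% were lower.

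The WT reference itself moved over the days. From day 2 to day 6, CDT1 (0.65 ± 0.17), MCM10 (0.48 ± 0.13) and MCM4 (0.32 ± 0.12) rose in WT, where 35.7% of all genes did. MCM6 (-0.69 ± 0.08), MCM7 (-0.62 ± 0.09), CDC6 (-0.50 ± 0.10), MCM5 (-0.38 ± 0.12) and MCM2 (-0.28 ± 0.12) fell, against 32.1% of all genes. From day 6 to day 8 the level of 8 members rose, against 17.6% of all genes, with MCM10 (0.23 ± 0.13) and MCM4 (0.09 ± 0.11) not passing. From day 2 to day 8, 5 members rose (30.1% of all genes) and 2 fell (29.7% of all genes). With 10 members, these counts and those from day 2 to day 6 are not far from the shares over all genes. CDT1 rose 2.33-fold, from 102, 97.4 and 97.3 CPM to 224, 236 and 231 CPM. MCM6 (-0.30 ± 0.08) and MCM7 (-0.23 ± 0.09) fell, and 1 of them did without WT day 2 replicate 1 or 2 or WT day 8 replicate 1 or 2. From day 6 to day 8, 17% of all genes and 0 members fell in edgeR, in DESeq2 and by unadjusted p. Scaling by library size alone shifted the median gene by 0.29 from day 2 to day 6, after which MCM2 stood at 0.013 and MCM3 at 0.29, so these directions hold relative to the median gene.

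Within UHRF1-AID/DNMT1-AID the level of CDT1 was 52, 53.7 and 55.4 CPM on day 2 and 79.8, 81.8 and 104 CPM on day 8, so all libraries of day 8 lay above those of day 2, a difference within the line that was not tested. Its difference from WT was -0.88 ± 0.17 on day 2 and -1.38 ± 0.17 on day 8, a change that did not pass. MCM2 in the same line had 112, 122 and 117 CPM on day 2, and its mean on day 8 was 0.501 of that on day 2. MCM3 in that line had a mean on day 8 that was 1.19 times its day 2 mean.

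The helicase ring contains each of its 6 subunits once, so the mix of their mRNAs is of interest. As a share of the sum of the 6 levels per kilobase, MCM3 made up 21% ± 0.235 (SD, n = 3) in WT on day 8 and 30.4% ± 2.3 in UHRF1-AID/DNMT1-AID. MCM5 made up 11.1% ± 0.2 and 15.9% ± 0.3. MCM2 went the other way, at 18.4% ± 0.4 in WT and 11.9% ± 0.9 in the line, and so did MCM7, at 26.3% ± 0.5 and 20.4% ± 1.1. The libraries of the groups did not overlap for these 4 subunits, nor for MCM4, at 9.45% ± 0.12 in WT and 7.28% ± 0.33 in the line. On day 2 MCM3 made up 16.9% ± 0.4 and MCM7 31.4% ± 0.4 in WT. In DNMT1-AID on day 8 the share of MCM3 was 25.1% ± 0.971 and that of MCM5 13.6% ± 0.6, both above WT in every library. In UHRF1-AID on day 8 they were 24.9% ± 0.6 and 11.9% ± 0.3, also above WT in every library. These shares follow from the levels given above and carry no separate test.

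**Figure D4:**
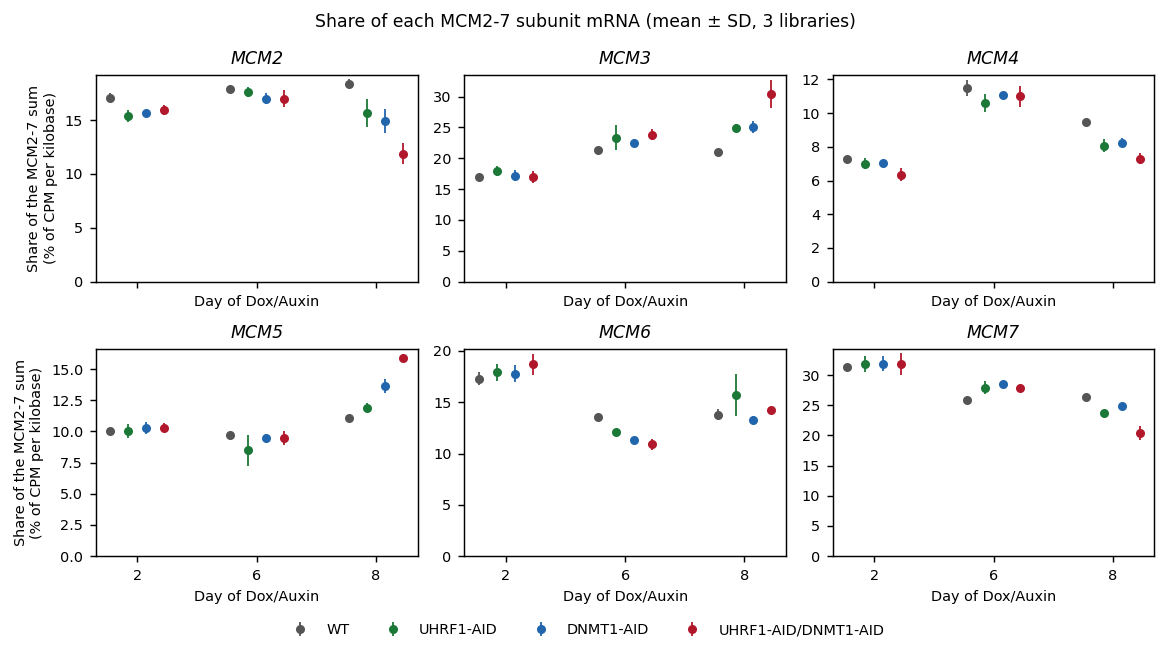
Share of each of the 6 ring subunits in their summed level per kilobase (mean ± SD, 3 libraries), by day and line, axes from 0. On day 8 MCM3 and MCM5 take their largest shares in UHRF1-AID/DNMT1-AID, 30.4% and 15.9%, and MCM2 and MCM7 their smallest.

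Other genes of the pathway, taken from lists chosen by function, were lower on day 8 in UHRF1-AID/DNMT1-AID in most cases, where 32.8% of all genes were lower and 35.7% higher. Of 13 genes that activate the loaded helicase, 13 were lower, among them GINS1, a subunit of the complex that joins the active helicase (-1.70 ± 0.12), and DBF4, the activator of the kinase CDC7 (-1.58 ± 0.13). The list's median was -1.14. Of 30 genes of the fork, 27 were lower and 2 higher (median -1.01). RFC3 of the clamp loader stood at -1.67 ± 0.10, and those higher were the small polymerase subunits POLE4 (0.70 ± 0.15) and POLD4 (0.65 ± 0.15), of which 1 passed with GC content and length correction. Of 12 further origin and licensing factors, 9 were lower and 2 higher (median -0.72). They included DTL, which directs destruction of CDT1 (-1.44 ± 0.13), and ORC2 (-0.97 ± 0.10), while LRWD1, a partner of the origin recognition complex, was higher (0.48 ± 0.07), as was FZR1, an activator of the anaphase-promoting complex (0.42 ± 0.09). E2F and RB regulators were lower in 12 of 15 (median -0.75), with E2F8, a repressor of the family, at -2.70 ± 0.21. S phase cyclins and nucleotide enzymes were lower in 10 of 10 (median -1.45), with RRM2, a ribonucleotide reductase subunit, at -2.01 ± 0.11 and CCNA2, the S phase cyclin, at -1.99 ± 0.10.

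The same lists were lower in the single-degron lines on day 8 at smaller medians, beside 21% of all genes lower in UHRF1-AID and 22.4% in DNMT1-AID. Helicase activation genes were lower in 13 of 13 in UHRF1-AID (median -0.79) and 11 of 13 in DNMT1-AID (median -0.78). Fork genes were lower in 25 and 24 of 30, and S phase genes in 10 and 9 of 10. On day 2, UHRF1-AID/DNMT1-AID had 12 of 13 activation genes and 22 of 30 fork genes lower, beside 11.5% of all genes, with medians of -0.60 and -0.47 against -0.86 for the 10 members.

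Licensing genes and mitotic genes differed in their calls on day 6 in UHRF1-AID/DNMT1-AID and UHRF1-AID, where all 10 members were lower. In DNMT1-AID only 1 member was lower, against 4.35% of all genes. Members were not tested against the markers or the other lists. Of 10 mitosis and proliferation markers, 10 were lower on day 8 in UHRF1-AID/DNMT1-AID (median -1.40), as were all 10 members. On day 6, 0 of the 10 markers were lower in any of the 3 lines, in edgeR, in DESeq2 or by unadjusted p. Instead 5 were higher in UHRF1-AID/DNMT1-AID (19% of all genes), 3 in UHRF1-AID (14.3%) and 4 in DNMT1-AID (8.84%). With 10 markers, the 3 in UHRF1-AID are not far from the share over all genes. In UHRF1-AID/DNMT1-AID the 5 were CCNB1, the mitotic cyclin (0.54 ± 0.11), the kinases AURKA (0.46 ± 0.10), BUB1 (0.31 ± 0.10), PLK1 (0.31 ± 0.10) and AURKB (0.29 ± 0.10). All 10 members were lower in the same libraries. In UHRF1-AID the higher markers were CCNB1, AURKA and PLK1, and in DNMT1-AID these and CDC20. Over alternatives added after the data had been seen, the number higher in UHRF1-AID/DNMT1-AID ranged from 2 (without WT replicate 2) to 8, with 3 without its own replicate 3. In UHRF1-AID it ranged from 1 (without its replicate 2) to 5, and in DNMT1-AID from 3 to 8. The number of markers lower on day 6 stayed at 0 under all of them. In DNMT1-AID on day 2, where 6 members were lower, 0 of the 10 markers passed in edgeR and in DESeq2, and 4 were lower by unadjusted p under 0.05. Of the 13 activation genes, 0 passed in edgeR, 2 were lower in DESeq2 and 5 by unadjusted p. Of the 30 fork genes, POLD1 (-0.41 ± 0.11) and CLSPN (-0.82 ± 0.22) were lower, and 0 were without WT replicate 1 or DNMT1-AID replicate 3.

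**Figure D5:**
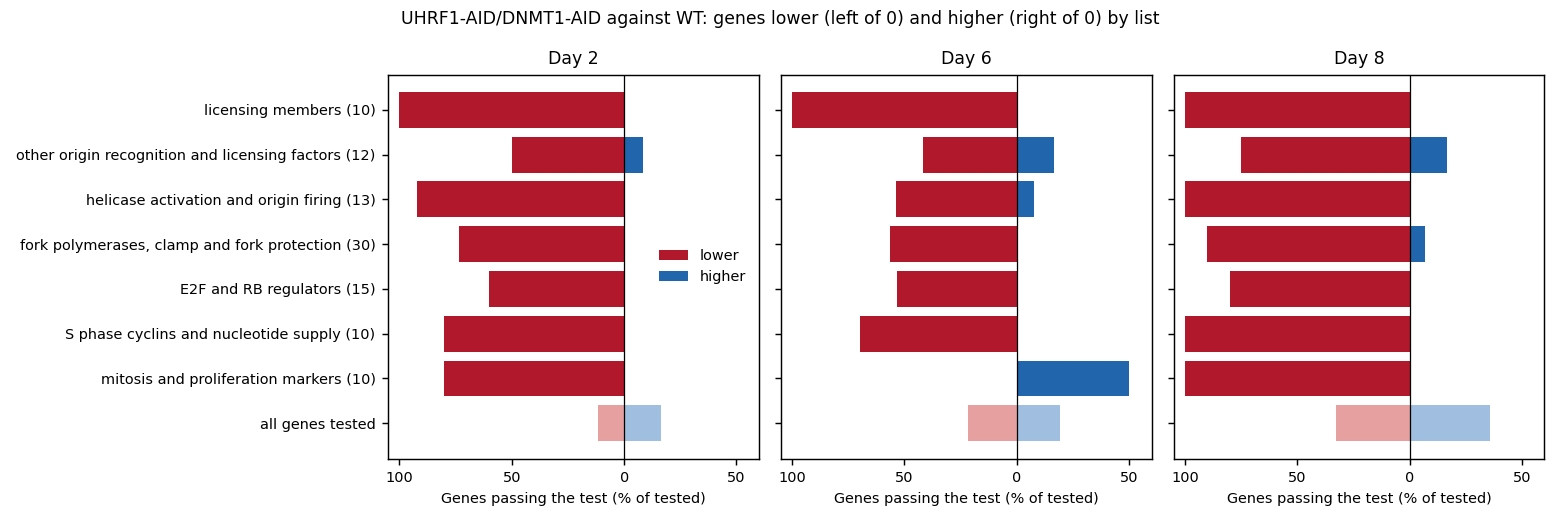
Percentage of tested genes of each list that were lower (left of 0) or higher (right of 0) in UHRF1-AID/DNMT1-AID than in WT on days 2, 6 and 8, with the number of genes in brackets and all genes in pale bars. The 10 licensing genes are lower on all 3 days, while 5 of 10 mitosis markers are higher on day 6 and all 10 are lower on day 8.

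The genes whose mean over the 12 groups followed the mean profile of the members most closely were DTL (Pearson r = 0.983), CHAF1B (0.978), CDC25A (0.965), SUV39H1 (0.952), DIS3L (0.942), ELOVL6 (0.939), NAA15 (0.936) and PAICS (0.935). CHAF1B is a subunit of the chromatin assembly factor and CDC25A a phosphatase of cell cycle kinases. These values describe 12 groups that share scaling and days. Among the members, ORC1 (0.948) and MCM2 (0.943) followed the mean profile most closely and CDT1 (0.586) least. Each member is part of that mean, which raises its r, so these values do not compare with those of the genes above. The nearest gene to a single member was GEMIN4 for MCM7 (0.990), MRPS30 for MCM6 (0.985), DTL for MCM2 (0.976) and E2F8 for both MCM4 (0.971) and ORC1 (0.966). FJX1 was nearest to MCM5 (0.965), HOXA7 to CDT1 (0.965), MANEAL to MCM3 (0.959), PKIB to CDC6 (0.957) and DONSON to MCM10 (0.949).

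Of the members' annotated exons, MCM2 shares 1113 bases (23.6%) with an antisense long noncoding RNA, ENSG00000285600, which had 48550 counts in all libraries against 122158 for MCM2. MCM7 shares 392 bases (7.9%) with AP4M1 on the other strand and 29 bases with MIR93. The strand setting of the counting is not given in the sources used here, so reads in these stretches cannot be assigned with certainty.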

How the data were processed

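RNA from 36 libraries was sequenced by the submitters as polyA RNA-seq. The authors trimmed reads, aligned them to hg38 with STAR and deposited raw counts per gene from featureCounts; the annotation release and the handling of strand and of reads with several matches are not given in the sources used here. Each file held 60648 identifiers, of which 60462 matched GENCODE names and 186 did not. Protein-coding genes (19942) were filtered with a minimum count of 10, leaving 15415, and fitted in edgeR 4.0.16 (R 4.3.3; TMM scaling, robust quasi-likelihood, 1 mean per group over 36 libraries, 24 residual degrees of freedom, common dispersion 0.0115). Tests are two-sided with Benjamini-Hochberg adjustment over all genes, and a gene passed at 0.05. SE is the log2 fold change divided by the root of F. Alternatives included DESeq2 1.42.0, other scalings and filters, GC content and length correction, a replicate block and leaving out each library. All 10 members are named in every comparison with WT; from each list, examples were taken by smallest adjusted p in UHRF1-AID/DNMT1-AID on day 8, and further genes (LRWD1, FZR1, POLE4, POLD4, POLD1, CLSPN and the day 6 markers) were named after their values were seen. Members and lists were chosen with earlier results of these data known. The fit was tested on simulated data, in which part of the 2-fold changes were not called. The criterion first set, a share of 2-fold changes called, was not met and was then replaced by checks of direction, size of the fold and false calls.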

Additional observations from a re-analysis of the deposited data

Results flagged for a closer look

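The difference from WT changed between days 2 and 8 by a test of the change itself (edgeR, adjusted over all genes). In UHRF1-AID/DNMT1-AID the change in log2 fold change was -1.13 for MCM2, -0.79 for MCM4, -0.68 for MCM6, -0.998 for MCM7, -0.57 for MCM10 and -1.13 for ORC1 (22.6% of all genes lower). In DNMT1-AID it was -0.50 for MCM2, -0.47 for MCM4, -0.41 for MCM6, -0.43 for MCM7 and -0.66 for ORC1 (9.28% of all genes lower). In UHRF1-AID it was -0.37 for MCM7 (7.09% of all genes lower). A count of 1 in 10 is near that share, and no member was lower in most fits that left out a single library.

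The degron lines also differed from each other on the same day by a direct test. UHRF1-AID was lower than DNMT1-AID in 2 members on day 2 (12.7% of all genes) and 7 on day 6 (5.1%). UHRF1-AID/DNMT1-AID was lower than UHRF1-AID in 4 members on day 2 (5.6% of all genes) and 9 on day 8 (23.5%), and lower than DNMT1-AID in 9 on day 2 (4.72%), 9 on day 6 (13%) and 10 on day 8 (24%). A count of 2 in 10 is near the share over all genes. No member was higher in any of these comparisons.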

How the results depend on the processing

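In UHRF1-AID and UHRF1-AID/DNMT1-AID all 10 members stayed lower than WT on all 3 days under the 9 alternatives and without each library. In DNMT1-AID the count was 10 on day 8 under the 9 alternatives and 9 to 10 without single libraries, 0 to 6 without single libraries on day 2, and 10 on day 2 when only the libraries of the comparison were fitted. On day 6 it was 2 with GC and length correction, 3 with that correction and the block, and 4 with the libraries of the comparison only.

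For the change from day 2 to day 8 in UHRF1-AID the count of members lower was 0 with DESeq2 size factors, no filter, all matched genes, DESeq2 or the libraries of the comparison only, and 0 to 3 without single libraries (higher: 0 to 1, the 1 without UHRF1-AID day 2 replicate 3). In DNMT1-AID it was 3 with all matched genes and with GC and length correction, alone or with the block, and 1 to 5 without single libraries. UHRF1-AID against DNMT1-AID gave 1 on day 2 with library size only or all matched genes, 0 with the libraries of the comparison only and 1 to 3 without single libraries. On day 6 it gave 4 with library size only and 4 to 8 without single libraries, and on day 8 0 to 1 without single libraries and 1 higher with library size only. UHRF1-AID/DNMT1-AID against UHRF1-AID on day 2 gave 2 with DESeq2 size factors, 7 with library size only and 0 to 4 without single libraries (higher: 0 to 1). Against DNMT1-AID on day 6 it gave 3 with library size only and 3 to 9 without single libraries.

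Library size only shifted the median gene by over 0.1 in 12 comparisons, most in WT from day 2 to day 6 (0.291). The share of higher among all calls then went from 78.9% to 28% for DNMT1-AID against WT on day 2, from 52.8% to 30.9% on day 8, and from 52.1% to 39.6% for UHRF1-AID/DNMT1-AID on day 8. For DNMT1-AID on day 2 the count of all genes lower was 110, 209 in DESeq2 and 221 with the libraries of the comparison only. On day 6 it was 670 and 1930 with the latter.

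In WT, library size only gave 2 lower and 5 higher from day 2 to day 6, 0 lower from day 2 to day 8 and 5 higher from day 6 to day 8. The 2 lower from day 2 to day 8 became 1 with all matched genes and with GC and length correction, alone or with the block, and 1 to 2 without single libraries. Library size only turned MCM2 from day 2 to day 6 to 0.013 (adjusted p = 0.949 in edgeR) and MCM3 to 0.29 (adjusted p = 0.0187 in edgeR). Of 3780 values of single members under alternatives, 67 others crossed 0 without passing in either fit. The causes were not tested, other than that leaving out libraries leaves fewer of them.

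Replicate numbers did not pair libraries of a degron line with those of WT on the same day. Deviations of same-numbered libraries correlated at -0.0644 to 0.0911 (n = 27 pairs of libraries). Pairs across days or between degron lines were not examined. With the replicate block the DNMT1-AID day 2 count was 7, and no count of members moved by over 1.5 times. The lowest count of a member in any library was 126, for ORC1. The SE of ORC1 on day 2 in DNMT1-AID was 0.138 and that of MCM6 0.079, and ORC1 did not pass at a larger difference than that at which MCM6 passed.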

Other observations

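Relatives of the ring subunits that do not take part in licensing moved in both directions, as did all genes (32.8% lower and 35.7% higher). MCM8, which acts with MCM9 in homologous recombination, was lower in UHRF1-AID/DNMT1-AID than in WT on day 8 at -2.16 ± 0.19 and MCM9 at -0.86 ± 0.12, while MCMDC2, known from meiotic recombination, was higher at 0.68 ± 0.12 (edgeR, 3 libraries per group).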
